A study of Mus musculus with 4 samples.

Results

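CD93-positive and CD93-negative group 3 innate lymphoid cells (ILC3s) of the wild-type mouse small intestine were compared across all genes of their joint expression table. ILC3s were sorted as live cells low for CD45, without CD3 and other lineage antigens and high for CD90.2, and were divided by surface CD93 after the cell suspension had been kept for 12 h in culture with no stimulus. The genotype is that of wild-type mice in both groups, while for the age and number of the mice and any pooling the sources used here give nothing. Each group is 1 library, so every difference below compares 2 libraries and has no replicate check. The series holds 4 libraries in all, and the other 2, of IL-17D-deficient and of wild-type ILC3s without the CD93 sort, are not used here. The labels give steady state, and the same culture, for all 4. Genes were included where the FPKM, the fragments counted per kilobase of transcript and scaled to the size of the library, was at least 1 in either library. That rule kept 10117 of the 12546 tabulated genes, called measured genes below, and left out 2429.

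ILC3s are tissue-resident lymphocytes of the gut that release IL-22, which acts on epithelial cells. They fall into a lymphoid tissue inducer-like (LTi-like) branch, marked by CCR6 and in part by CD4, and a branch that carries natural cytotoxicity receptors (NCR) and can take up features of ILC1s and NK cells under the transcription factor T-bet. CD93 is a transmembrane glycoprotein with a C-type lectin-like domain, known from endothelial and myeloid cells and early B cells, and has been described as a receptor of IL-17D on ILC3s.

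CD93-positive ILC3s had more RNA of LTi-like markers, of IL-22 and some other secreted factors, and of enzymes of sterol synthesis. CD93-negative ILC3s had more RNA of NK receptors, cytotoxic granule proteins, GIMAP GTPases and a few genes of lymphoid progenitors. Differences are given as log2((FPKM + 1) / (FPKM + 1)), CD93-positive over CD93-negative. Adding 1, the pseudocount, shrinks the difference where either value is small. Ratios given with an interval are of FPKM with nothing added. A gene is called higher or lower below where its difference reached 1 in log2, that is 2-fold after adding 1. Otherwise only its values are given. By this limit 252 genes were higher in CD93-positive ILC3s, 2.49% of the measured genes, and 196 were lower, 1.94%. The remaining 9669 genes (95.6%) were under 2-fold apart, and the median difference of all measured genes was 0.04. The deciles of the difference lay at -0.46 and 0.51. Only 31 genes reached 4-fold in the higher and 17 in the lower direction.

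**Figure D1:**
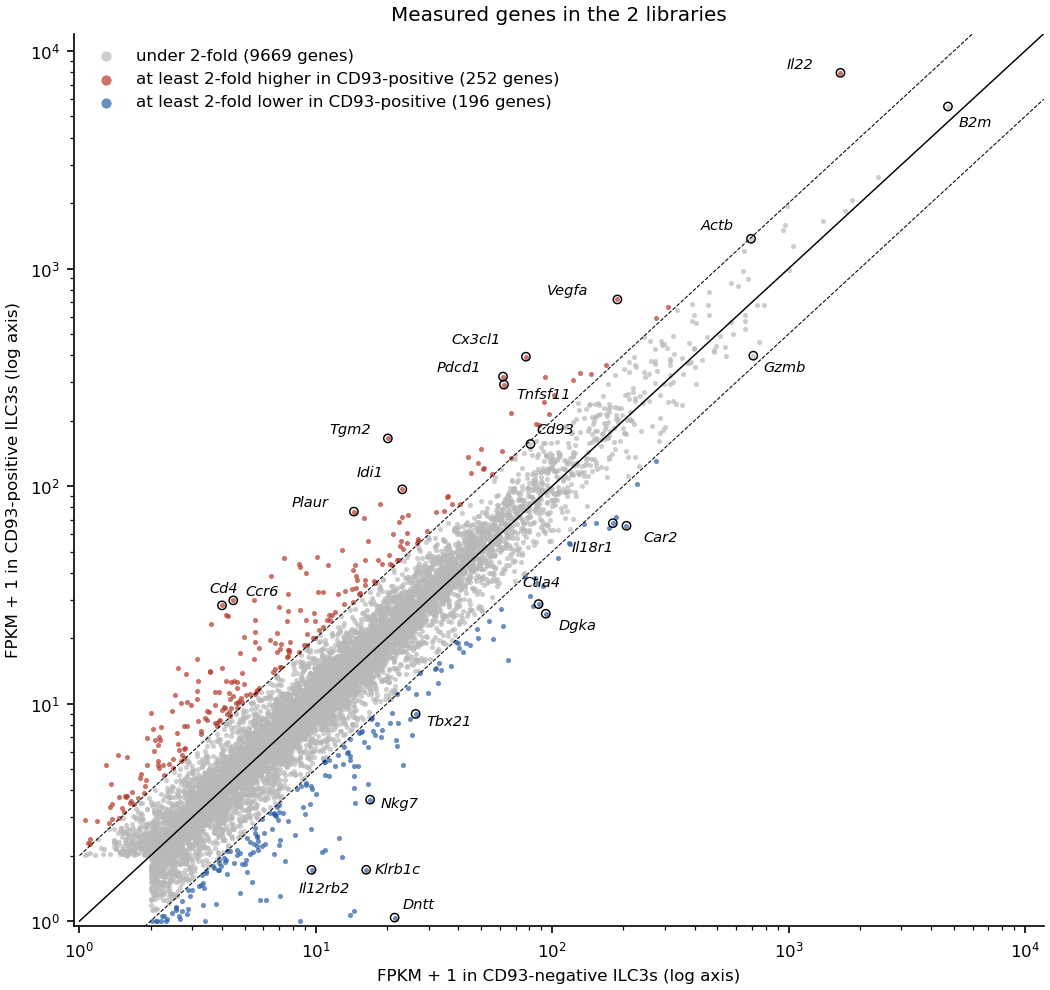
FPKM + 1 of the 10117 measured genes in CD93-negative (x axis) and CD93-positive ILC3s (y axis), both on log axes. Each point is a gene, the solid line marks equal values and the dashed lines 2-fold differences; 252 genes lie above the upper dashed line and 196 below the lower one, and Il22 stands far above the line at the top of the range.

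The library total recovered from the FPKM scaling was 11712846 for the CD93-positive and 11790580 for the CD93-negative library, and whether it is a read total or an adjusted library size is not known. The FPKM values summed to 256540 and 227212. With these sums made equal at their mean, the median difference of all genes was -0.12 and 173 genes were higher and 296 lower. The higher ones then made up 36.9% of the genes called, in place of 56.2% under the deposited values. A median ratio of 1 gave 230 and 213. Medians of gene lists are printed under the deposited scaling and are to be read against the median of 0.04 of all measured genes, which such a scaling moves along with the list. Il22 alone made up 3.09% of the summed FPKM of CD93-positive ILC3s and 0.729% of that of CD93-negative ones, and its difference was 21.4% of the difference between the sums. The 95% intervals given after ratios come from recovered reads and cover counting error only. In bulk RNA, fewer cells of a type and less RNA per cell cannot be told apart.

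The sort and the cell type were checked on marker genes. Cd93 itself (chromosome 2, 148436640 to 148443563, minus strand, mm10) reached 155.0 FPKM in the CD93-positive library and 79.9 in the CD93-negative one. It thus went with the sort labels, though CD93-negative cells were not without its RNA, and its difference of 0.95 was under the 2-fold limit. All 8 ILC3 markers were measured in both libraries. Their summed FPKM was 9205 and 2507, most of it Il22. Of these 8 markers 2, Il22 included, were higher.

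Markers of other cell types were found at unlike levels. The summed FPKM of Cd3d, Cd3e and Cd3g was 2.33 and 9.57 (the CD93-positive library is given first here and below), with Cd3g at 1.12 and 4.67; the other 3 T cell markers and all 4 B cell markers were not analysed here. Among the fibroblast and muscle markers, Col1a1, Col3a1, Dcn and Pdgfra summed to 0.318 and 0.480. Of 5 endothelial markers, summing to 98.5 and 66.1, Pecam1 (74.4 and 59.4) and Cldn5 (23.2 and 4.55) made up most, and Cdh5 had 0.569 and 1.67. Epithelial markers summed to 13.0 and 26.1, and myeloid markers to 27.01 and 19.8. Genes of the exocrine pancreas were found in both libraries. They included the chymotrypsinogen gene Ctrb1 (185 and 297), the elastase gene Cela2a (35.0 and 58.6) and the trypsinogen gene Prss2 (45.5 and 63.4), and all 19 tabulated genes of this kind had smaller values in CD93-positive ILC3s, each by less than 2-fold. The part of such RNA in the differences between the libraries was not tested.

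Among the lists of innate lymphoid cell genes, that of the LTi-like branch had the highest median. Of 15 measured LTi-like genes, 8 were higher and 0 lower, and their median was 1.07 against 0.04 for all genes. Cd4 stood at 27.3 FPKM in the CD93-positive library against 3.01 in the CD93-negative one, and Ccr6, the receptor of the chemokine CCL20, had 28.8 and 3.47. Among the genes ranked by difference, only Tgm2 lay above these 2. Cxcr5, the receptor that guides cells to lymphoid follicles, had 11.7 and 3.16, Nrp1 had 8.18 and 2.52, and the transcription factor gene Batf3 had 6.84 and 1.22. The list was not uniform: Ltb, the lymphotoxin beta gene, had 75.4 and 114, and Gpr183, an oxysterol receptor that positions ILC3s in lymphoid tissue, had 121 and 73.1.

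Lists on ILC3 identity did not move as a block. Of 28 measured identity factors and surface genes, 2 were higher, among them Tox2 (26.7 and 5.99), and 0 lower, with a median of 0.02. Thy1, the gene of the CD90.2 antigen used in the sort, had 392 and 220, and Id2, an inhibitor of E proteins that all innate lymphoid cells need, had 465 and 287. On the other side, the aryl hydrocarbon receptor gene Ahr had 5.76 and 10.02, the Helios gene Ikzf2 15.3 and 26.97, and Zbtb16, which encodes PLZF, 4.61 and 9.76. These 5 genes were all under the 2-fold limit.

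Genes that ILC3s share with ILC1s and NK cells had the opposite pattern. Of 29 measured genes of NCR-positive ILC3s, ILC1s and NK cells, 9 were lower in CD93-positive ILC3s and 1 was higher, with a median of -0.72. Tbx21, the T-bet gene, had 7.96 against 25.4, 3.19-fold lower (2.75 to 3.72). Receptor genes for the type 1 cytokines IL-12 and IL-18, Il12rb2 (0.720 and 8.58) and Il18r1 (66.5 and 179), were 11.9-fold (8.30 to 17.7) and 2.70-fold lower (2.60 to 2.80). The exception was Il12rb1 (82.0 and 39.6), whose product is shared by the IL-12 and IL-23 receptors. Ifng, the interferon-γ gene, had 5.54 and 5.83, and Ncr1, the NKp46 gene, had 14.8 and 25.7.

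Killer lectin-like receptors, which sense MHC class I and related ligands on other cells, had smaller values throughout. All 13 measured genes of this family were below their CD93-negative level, under the deposited scaling and with equal sums, and 5 of them were lower by the limit, with a median of -0.73. Klrb1c, the NK1.1 gene, had 0.721 and 15.3, from 25 and 535 recovered reads. Klrd1, the CD94 gene, had 1.4 and 11.6, Klri1 had 1.12 and 9.92, and Klra5, a Ly49 receptor gene, had 1.65 and 8.49. Less far apart was Klrb1b, the most abundant member, with 293 and 406. Members of this family resemble each other in sequence, so reads may be split between them and single values are uncertain.

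Cytotoxic granule genes had a like pattern: of 16 measured, 4 were lower and 0 higher, with a median of -0.61. Nkg7, a granule membrane protein gene, had 2.62 and 15.96, a 6.10-fold difference (4.08 to 9.45). Fasl, the Fas ligand gene, had 3.26 and 15.7, Gzma had 26.99 and 82.2, and the cathepsin W gene Ctsw had 18.7 and 55.4. The granzyme genes Gzmb (396 and 708) and Gzmc (456 and 750), of a family with members alike in sequence, were far more abundant and under 2-fold apart. Serpinb6b, a serine protease inhibitor gene, ran the other way with 486 and 322, also under 2-fold.

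**Figure D2:**
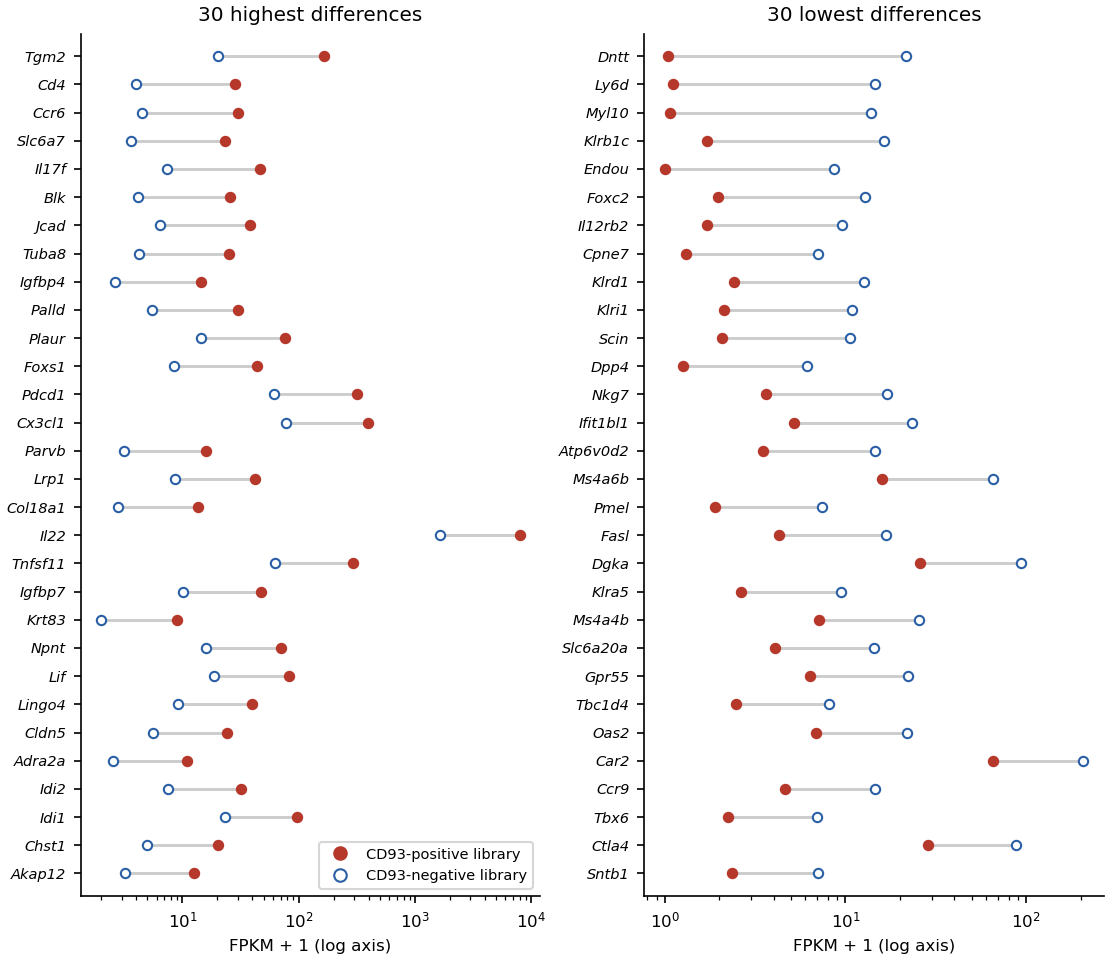
FPKM + 1 on a log axis of the 30 genes with the highest (left) and the 30 with the lowest (right) log2 differences among genes that reached an FPKM of 5 in a library. Filled points are the CD93-positive and open points the CD93-negative library; on the right, Dntt, Ly6d, Myl10 and Endou lie at or close to the origin of the axis in CD93-positive ILC3s.

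Outside these branches, the lowest differences held genes of early lymphocytes. Dntt, which encodes terminal deoxynucleotidyl transferase, the enzyme that adds bases at the joints of antigen receptor genes, had values of 0.0372 in CD93-positive ILC3s and 20.5 in the CD93-negative library, from 1 and 555 reads. Ly6d, a surface marker of lymphoid progenitors, had 0.115 and 13.6, from 1 and 119 reads. Myl10 (0.0710 and 12.9) likewise had 1 read in CD93-positive ILC3s, and Endou, an RNA endonuclease gene, had 0 against 246 reads, at least 81.5-fold lower with the bound set at 3 reads. Of 14 measured lymphoid progenitor genes, 4 were lower, Dntt, Sox4 (1.07 and 4.40), Lef1 (0.709 and 2.86) and Ccr9 (3.64 and 13.5), and 2 were higher, Pdcd1 and Ly6a (588 and 273). The median of the list relative to all genes, -0.39, was -0.12 where only genes with an FPKM of at least 5 were kept. Tcf7, the TCF1 gene that marks lymphoid progenitors and many ILC3s, had 112 and 120. The T cell list had 3 of 7 measured genes lower, Cd3d (0.141 and 1.87), Cd3g and the kinase gene Lck (23.1 and 53.2). The part of T cell or progenitor RNA in these differences was not tested.

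Among effector molecules, single ligand genes were far apart, while the lists of ligands differed from each other. The 22 measured interleukin and cytokine genes held 6 that were higher and 1 lower, with a median of 0.28. Il22 had 7934 and 1655, and Iltifb, a near-identical copy that may share reads with it, had 9.46 and 2.15. Il17f had 45.5 and 6.33, a ratio of 7.19 (6.06 to 8.58), while its neighbour Il17a had 8.53 and 3.62. Lif, the leukemia inhibitory factor gene, had 81.7 and 17.7, and Osm, the related oncostatin M gene, 9.17 and 3.88. Csf2, the GM-CSF gene, had 214 and 95.9. The lower one was Csf3, the G-CSF gene, with 0.302 and 1.92.

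TNF superfamily ligands, which signal to stroma, dendritic cells and B cells, had 5 of 11 measured members higher and 1 lower, with a median of 0.76. Relative to all genes the median was 0.73, and 0.31 without the filter on low values. Tnfsf11, the RANKL gene, was the most abundant in the CD93-positive library and came after Ltb in the other, with 291 and 61.5, a ratio of 4.74 (4.49 to 5.004). Tnfsf8, the CD30 ligand gene, had 18.1 and 4.50, Tnf 59.1 and 20.2, Lta 18.3 and 6.81, and Tnfsf4, the OX40 ligand gene, 31.0 and 14.3. Fasl was the member that was lower. Of their 19 measured receptors, 2 were higher, Tnfrsf21 (9.54 and 3.32) and Tnfrsf9, the 4-1BB gene (664 and 309), and 2 lower, Tnfrsf18, the GITR gene (8.01 and 19.98), and Cd27 (0.917 and 4.04).

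Growth and repair factors were higher in CD93-positive ILC3s in 6 of 14 measured cases and lower in 1, with a median of 0.45. Relative to all genes that median was 0.42, and 0.22 with a pseudocount of 5. Vegfa, the main growth factor of blood vessels, had 719 and 188, and was the most abundant of them. Platelet-derived growth factor genes Pdgfa (10.3 and 2.75) and Pdgfb (18.1 and 5.75), the EGF receptor ligand gene Hbegf (16.3 and 5.83), Bmp2 (3.70 and 1.29) and Furin, a protease that matures many secreted factors (326 and 146), completed the 6. The midkine gene Mdk (0.903 and 2.88) was lower. Amphiregulin, an ILC2 product encoded by Areg, had 6.32 and 8.87.

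Of 16 measured chemokine genes 2 were higher and 3 lower, with 12 below 0 and a median of -0.22. Relative to all genes the median was -0.26, and -0.13 with a pseudocount of 5. Cx3cl1, the fractalkine gene, had 392 and 76.4, a ratio of 5.13 (4.95 to 5.32), and its chromosomal neighbour Ccl17 had 8.14 and 3.30. Lower were Ccl22 (7.16 and 19.6), Ccl2 (4.28 and 12.1) and the neutrophil attractant gene Cxcl1 (3.69 and 9.91). Among 23 measured homing receptors, 4 were higher and 3 lower. Besides Ccr6 and Cxcr5, Ccr1 (30.8 and 11.4) and the scavenging receptor gene Ackr3 (54.7 and 25.9) were higher. Ccr9, which directs lymphocytes to the small intestine, Cxcr3 (21.8 and 60.9), a receptor of interferon-induced chemokines, and Gpr55 (5.39 and 21.1) were lower. Cxcr6, the most abundant of them, had 380 and 430.

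Checkpoint and costimulatory receptors split in both directions with large single differences. Pdcd1, the PD-1 gene, had 318 and 60.9, 5.21-fold higher (4.92 to 5.53), and Havcr2, the TIM-3 gene, had 24.98 and 8.79. Ctla4 ran against them with 27.7 and 86.5, 3.13-fold lower (2.88 to 3.40). Of the 22 measured genes, 3 were higher and 4 lower, and the median was -0.27. Icos (175 and 163) and Tigit (69.4 and 59.8) were close to equal.

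The single highest difference belonged to Tgm2, which encodes transglutaminase 2, an enzyme that cross-links matrix proteins. It had 165 and 19.2, a ratio of 8.59 (8.05 to 9.17). The matrix, protease and plasminogen list held 29 measured genes, of which 7 were higher and 0 lower, with a median of 0.43. Relative to all genes it was 0.39, and 0.17 with a pseudocount of 5. Plaur, the receptor of the plasminogen activator urokinase, had 75.3 and 13.5. Adam8, a membrane metalloprotease gene, had 241 and 91.4, the heparan sulfate proteoglycan gene Sdc4 307 and 121, and the annexin gene Anxa5 360 and 169. Further genes tied to matrix and adhesion among the 30 highest differences were Npnt, an integrin ligand of the basement membrane (70.1 and 15.0), Col18a1 (12.7 and 1.81), Lrp1, an endocytic receptor (41.3 and 7.56), Parvb, a partner of integrin-linked kinase (15.0 and 2.15), and the insulin-like growth factor binding protein genes Igfbp4 (13.5 and 1.61) and Igfbp7 (46.2 and 9.12). Lgals3, the galectin-3 gene of the same list, had 62.4 and 118.

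Some of these genes are known mainly from stromal or vascular cells. The 4 measured members of the fibroblast, smooth muscle and glial list, Pdgfrb (10.8 and 3.65), Lum (11.3 and 3.95), Vim (120 and 50.2) and Gsn (19.1 and 8.89), were all higher in CD93-positive ILC3s, while the collagen genes Col1a1 and Col3a1 with Dcn and Pdgfra summed to no more than 0.480 in either library. Cldn5, the claudin of endothelial junctions, and Eng, the endoglin gene (11.6 and 3.65), were higher, while Cdh5, which encodes the endothelial cadherin, had 0.569 and 1.67. The share of such cells in the sorted samples was not tested.

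Cytoskeletal genes lay mostly above 0. Of 43 measured actin, tubulin and cytoskeleton genes, 6 were higher and 0 lower, with a median of 0.41, and 39 of 43 lay above 0 as deposited and 36 with equal sums. Palld, which encodes the actin cross-linker palladin, had 29.0 and 4.46, the filamin gene Flna 126 and 47.5, and the tubulin genes Tubb6 119 and 49.9 and Tubb4b 191 and 86.9. Actb, often used as a reference gene, had 1369 and 692, a ratio of 1.98 (1.95 to 2.01). Tubulins and actins are families of close copies, so the single values carry that uncertainty.

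Axon guidance molecules also appeared. Of 15 measured semaphorin, plexin and ephrin genes, 4 were higher and 1 lower; the higher ones were the plexin genes Plxnd1 (31.5 and 9.75) and Plxna1 (7.36 and 2.17), Nrp1 and Sema4b (32.8 and 13.9), and the lower one was Sema7a (1.55 and 4.55). Without the filter on low values the median of this list turned from 0.51 above that of all genes to 0.03 below it. The list of neuropeptide, catecholamine, purine and neurotrophic receptors was scattered, with 3 of 14 measured genes higher and 1 lower. Higher were Ret, the receptor of glial-derived neurotrophic factors (18.7 and 5.38), the adrenergic receptor gene Adra2a (9.89 and 1.54) and the adenosine receptor gene Adora2b (3.47 and 0.919). The lower one was P2ry10 (53.0 and 118). Ramp3, a partner of receptors of the calcitonin receptor family and among the most abundant genes of both libraries, had 1945 and 988. Calcrl, a receptor gene of that family, was under the filter with 0.542 and 0.712. Vipr2, the receptor of vasoactive intestinal peptide on ILC3s, had 7.14 and 3.12.

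**Figure D3:**
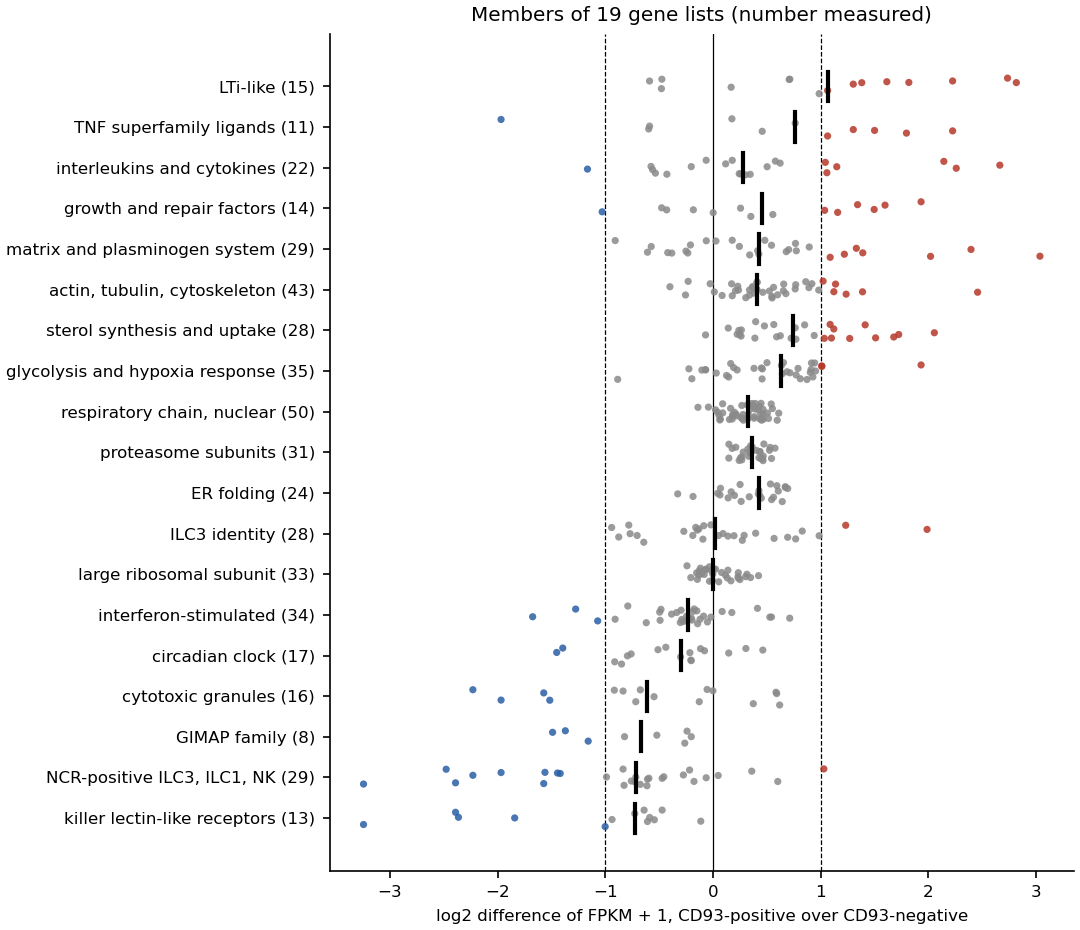
Log2 difference of FPKM + 1 (x axis, CD93-positive over CD93-negative) of every measured member of 19 gene lists, with the number of members in parentheses. Each point is a gene, the vertical bar is the list's median and the dashed lines are 2-fold; LTi-like genes have a median of 1.07, and killer lectin-like receptors one of -0.73 with no member above 0.

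Sterol synthesis was the metabolic group with the most genes apart. This pathway turns acetyl-CoA through mevalonate into cholesterol and is switched on by the transcription factor SREBP2 when membrane sterol is low. Of 28 measured genes of sterol synthesis and uptake, 10 were higher in CD93-positive ILC3s and 0 lower, with a median of 0.75, and 27 of 28 lay above 0 as deposited and 26 with equal sums. At the entry, Hmgcs1, the HMG-CoA synthase gene, had 28.4 and 13.3. Idi1, an isomerase that makes the building blocks of isoprenoids, had 95.6 and 22.2, and its neighbouring copy Idi2, which may share its reads, had 31.0 and 6.59. In the later steps Sqle had 22.9 and 8.92, Lss 4.80 and 1.71, Cyp51 40.1 and 13.4, and Hsd17b7 8.85 and 1.98. Insig1, an inhibitor of the pathway that is itself a target of SREBP2, had 42.7 and 19.6. Srebf2 itself had 89.7 and 57.8.

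Genes of sterol export, many of them targets of the oxysterol-sensing LXR receptors, were mostly under 2-fold apart. Mylip, a ubiquitin ligase gene, had 6.18 and 16.8, 2.72-fold lower (2.34 to 3.17), and the efflux pump gene Abcg1 had 2.76 and 6.11. Of the 10 measured genes on that list, 1 was lower and 0 higher, with 6 below 0 and a median of -0.22. Relative to all genes the median was -0.26, and it lay between -0.32 and -0.18 over all settings. Fatty acid synthesis had 2 of 15 genes higher, the desaturase gene Scd2 (20.4 and 4.55) and Fasn (23.2 and 10.5), and 1 lower, Fads2 (0.389 and 1.98). Fatty acid oxidation had 0 of 17 genes at 2-fold in either direction and a median of 0.07. Among all measured genes 2.49% were higher and 1.94% lower, so a count of 0 in 17 is close to the overall share.

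**Figure D4:**
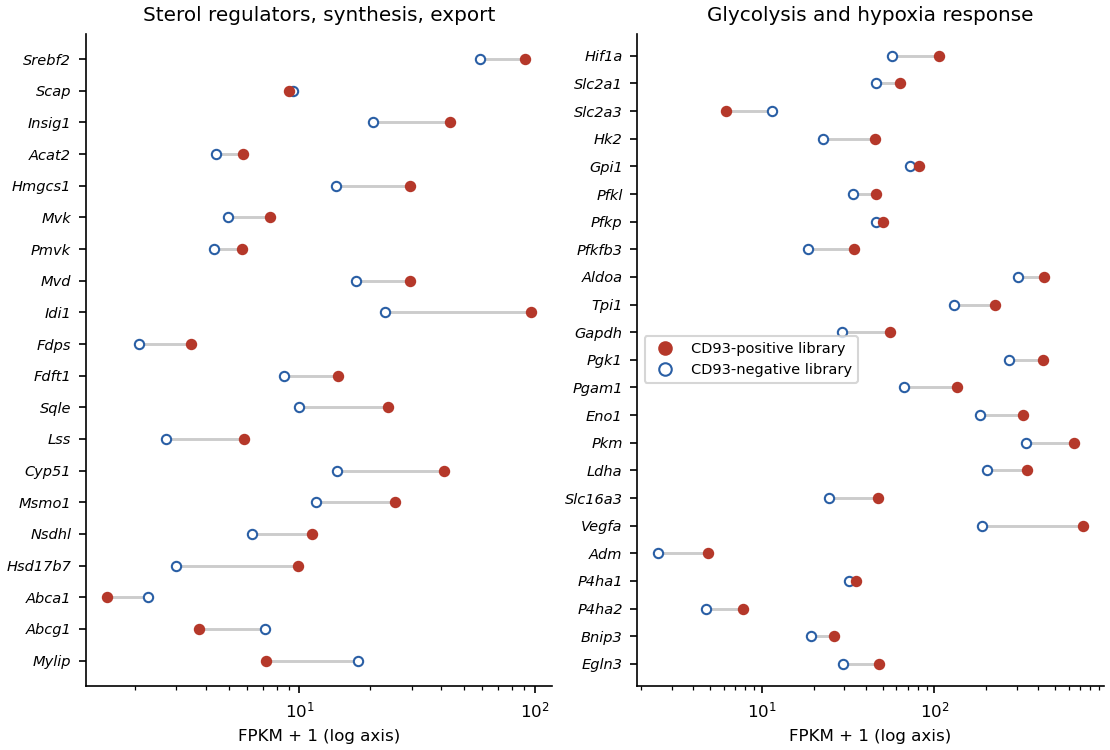
FPKM + 1 on a log axis of genes of sterol regulation, synthesis and export (left) and of glycolysis and the hypoxia response (right), in pathway order. Filled points are the CD93-positive and open points the CD93-negative library; the filled point lies to the right at each step from Hmgcs1 to Hsd17b7 and to the left for Abca1, Abcg1 and Mylip.

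Glycolysis and the hypoxia response gave a broad difference of smaller size. Among 35 measured genes 3 were higher, Vegfa, Hk2 (44.5 and 21.6) and Pgam1 (133 and 65.7), and 0 lower, with a median of 0.64. Many steps lay close under the limit. Pkm had 641 and 337, Eno1 323 and 183, Ldha 344 and 201, Tpi1 223 and 128, Gapdh 54.2 and 28.3, and Hif1a, the hypoxia-inducible factor gene, 105 and 55.4. The lactate exporter gene Slc16a3 had 46.2 and 23.4. Slc2a3, a glucose transporter gene, was the lowest of the list with 5.20 and 10.4, and Slc2a1, the other main one, had 62.0 and 44.8.

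Several lists of cell machinery held few or no genes at least 2-fold apart, beside 2.49% higher and 1.94% lower among all measured genes. The 50 nuclear genes of the respiratory chain and ATP synthase had a median of 0.33, with 48 above 0 as deposited and 39 with equal sums. Of the 31 proteasome genes, 31 lay above 0 as deposited and 29 with equal sums, with a median of 0.36. The 24 genes of the unfolded protein response and of folding in the endoplasmic reticulum had a median of 0.43, and the 31 genes of ribosome biogenesis and MYC targets one of 0.44. In none of the first 3 of these 4 lists was a gene at least 2-fold apart, and in the last Srm, the spermidine synthase gene (9.56 and 3.82), was the only one. The 33 proteins of the large ribosomal subunit had a median of 0.00 and the 28 of the small subunit one of -0.04. The difference moved with gene length: the median over all genes was 0.12 in the 2003 shortest measured genes and -0.03 in the 2000 longest. Relative to bins of genes of like length and level, the median of the respiratory chain was 0.15 and that of the proteasome 0.21. The unfolded protein response and ribosome biogenesis lists, at 0.39 and 0.40 relative to all genes, stayed at 0.28 and 0.29 or above in every alternative run on lists, these bins included. The part of gene length in these differences was not tested.

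Several families had low values in CD93-positive ILC3s beyond the NK-related ones. All 8 GIMAP genes, GTPases that support lymphocyte survival, had smaller values, with a median of -0.67, as deposited and with equal sums. Gimap3 had 102 and 228, Gimap4 71.2 and 186, and Gimap7 4.15 and 13.5; these 3 were lower by the limit. Of 34 interferon-stimulated genes, 3 were lower and 0 higher, with a median of -0.23: Ifit3 (129 and 272), Ifit2 (17.5 and 43.9) and Oas2 (5.83 and 20.8). Isg15, the ubiquitin-like modifier gene, had 419 and 480. Clock genes had 2 of 17 members lower, the output factors Dbp (2.45 and 8.44) and Tef (5.33 and 15.6), while the repressor gene Nr1d1 had 39.9 and 68.2. The median of the clock list relative to all genes, -0.34, was -0.18 with a pseudocount of 5.

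Single lower genes came from several lists. Klf2, a factor of lymphocyte quiescence and circulation, had 0.832 and 3.86, Nr4a3 had 10.1 and 28.7, the phosphatase gene Dusp2 0.682 and 4.11, and Pik3ip1, an inhibitor of PI3 kinase, 0.839 and 4.03. Dgka, which removes the second messenger diacylglycerol, had 24.9 and 92.9, 3.74-fold lower (3.52 to 3.97). Among abundant genes, Btg2, an antiproliferative factor (65.9 and 135), and Trp53inp1, a p53 target (63.4 and 173), went the same way, and so did the carbonic anhydrase gene Car2 (64.6 and 205). The cell cycle list had 1 of 26 genes lower, Stmn1 (0.666 and 2.43), and 0 higher. Of these 26 genes, 21 lay below 0 as deposited and 23 with equal sums, with a median of -0.25. Relative to all genes that median was -0.29, and it lay between -0.40 and -0.16 over all settings. Heat shock genes Hspa1a (16.3 and 41.0) and Hspa1b (34.7 and 85.4), near-identical copies, were lower too, and the immediate early genes Fos (15.0 and 27.8) and Egr1 (6.23 and 12.3) had smaller values within the limit. Whether handling or RNA quality has a part in the last 4 was not tested.

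Single genes of interest stood apart from lists that were level. Blk, a SRC family kinase gene, had 24.6 and 3.17 while its list of 25 measured receptor-proximal signalling genes had a median of -0.11. Bcl2, the survival gene, had 23.1 and 6.52, against a median of 0.02 for 28 genes of its family and of cell death. Ptges, which makes prostaglandin E2, had 49.97 and 11.9, while the other 11 measured prostaglandin and leukotriene genes were under 2-fold apart. Dll1, a Notch ligand gene, had 13.1 and 2.55, whereas the Notch target gene Hes1 (0.796 and 2.66) was lower. Il17re, a receptor subunit of IL-17C, had 10.3 and 2.88 and was higher, while Il17rb, a receptor subunit of IL-25 from the same list, was lower with 1.11 and 3.23.

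Some genes at least 2-fold apart lay next to each other. Of the 251 higher genes with a position, 51 were within 100000 bases of another higher gene, in 24 runs, and of 196 lower genes 41 were near another lower one, in 16 runs. These are 20.3% and 20.9%, while 6.96% of all 10006 measured genes with a position had a higher gene and 5.29% a lower gene, other than themselves, at that distance. No test was made of these shares. The higher runs included Il17a with Il17f on chromosome 1, Tnf with Lta on chromosome 17, Osm with Lif on chromosome 11, and Hoxa5 (17.7 and 6.15), Hoxa6 (13.7 and 6.11) and Hoxa7 (5.82 and 1.09) on chromosome 6. Plaur lay beside Cadm4, and Slc15a3 (316 and 92.4), a peptide transporter gene of endosomes, overlapped Tmem132a (25.6 and 6.66) by 1541 bases on the other strand. Gene families were among the lower runs. They were the Klr genes and the Gimap genes on chromosome 6, the Ifi200 genes Ifi214, Ifi213, Ifi209 and Ifi208 on chromosome 1, with all 4 measured genes of the span lower, Ifit2, Ifit3 and Ifit1bl1 on chromosome 19, and Ms4a4b (6.16 and 24.6) with Ms4a6b (14.9 and 64.3), also on chromosome 19. The longest lower run, on chromosome 9, held Cd3g, Cd3d, Jaml (18.1 and 38.04), Scn4b and Il10ra in 299.6 kb, where all 7 measured genes had smaller values.

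Overlapping gene models limit some single values in these runs. Pmel (0.894 and 6.44), a pigment granule gene, shares 105 bases with Dgka on the opposite strand, and Ccr9 shares 447 bases with Slc6a20a (3.07 and 13.4) and 23282 with Lztfl1 (3.74 and 8.13). Tgm2 overlaps Rprd1b, which had only 13.1 and 7.84. For the strand setting of the authors' counting the sources used here give nothing, so reads of such partners cannot be told apart. Family members in a run, such as Idi1 and Idi2 or Klri1 and Klri2, are also alike in sequence.

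Promoter sequences of the genes at least 2-fold apart were read for 9 motifs. RefSeq windows (GRCm38.p6), from 250 bases before to 50 after a start, were at hand for 189 of 252 higher, 146 of 196 lower and 8182 of 10117 measured genes, and each motif was searched on both strands. The AP-1 motif TGANTCA, bound by FOS, JUN and BATF proteins, was found for 28 of 189 higher genes (14.8%), for 12 of 146 lower genes (8.22%) and for 494 of all 8182 (6.04%). Of the 30 highest genes, Plaur, Lif and Palld held it, and of the 30 lowest Ms4a4b did. It was also found for P2ry10, Ifi209 and Ifit3, from the 10 farthest lower genes at 50 FPKM or more in both libraries. No gene from the 10 farthest higher ones at that level was found with it. Promoters with a GC content under the median of all windows held it more often in every set, in 21.1% of higher, 9.68% of lower and 8.39% of all genes, against 9.09%, 5.66% and 3.69% at or above that median. The RUNX motif TGTGGTT was found in 8.47%, 7.53% and 4.64%. No test was made of these shares, since the genes of a set are not replicates, and a match of letters is no evidence of binding. The AP-1 genes themselves were largely level, with Junb at 442 and 490, Jun at 224 and 172 and Fosl2 at 114 and 131, and Batf3 was the only one of 20 measured that reached 2-fold.

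A stretch of the Lif promoter window is shown, since Lif was among the 30 highest genes, with the AP-1 match in capitals. It is chr11:4257318-4257417 on the plus strand with a match 221 bases before the start.
Lif: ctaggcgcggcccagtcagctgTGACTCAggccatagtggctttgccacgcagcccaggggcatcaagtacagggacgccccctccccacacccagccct
Ccr6 held the ROR element TAGGTCA, which nuclear receptors of the ROR family bind, on the minus strand and so printed as its reverse complement, in chr17:8235943-8236042 on the plus strand, 37 bases before the start. The element was found in 2.65% of higher, 2.74% of lower and 2.26% of all genes.
Ccr6: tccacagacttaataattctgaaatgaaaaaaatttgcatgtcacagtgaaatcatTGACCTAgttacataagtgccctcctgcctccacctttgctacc

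In the sterol genes a different motif was frequent. The CCAAT box, bound by NF-Y, a cofactor of SREBP proteins, was found for 19 of 21 genes of the sterol synthesis and uptake list with a window (90.5%), against 42.6% of all measured genes, 41.3% of the higher and 39.0% of the lower ones. The sterol element, a short motif of SREBP proteins, was found for 1 of these 21 genes, Hmgcs1, and in 1.33% of all genes. The 21 windows had a median GC content of 62.3%, against 60.8% for all genes. The stretches of Hmgcs1 (chr13:119690169-119690268, plus strand, sterol element in capitals, 128 bases before the start), Insig1 (chr5:28071162-28071261, plus strand) and Hsd17b7 (chr1:169969318-169969417, minus strand), the last 2 with the CCAAT box in capitals on the strand opposite to the gene, are printed because these genes were higher in CD93-positive ILC3s.
Hmgcs1: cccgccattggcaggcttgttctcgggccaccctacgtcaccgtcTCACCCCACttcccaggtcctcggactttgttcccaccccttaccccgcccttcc
Insig1: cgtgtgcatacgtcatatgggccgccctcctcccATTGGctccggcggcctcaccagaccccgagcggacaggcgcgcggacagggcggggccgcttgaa
Hsd17b7: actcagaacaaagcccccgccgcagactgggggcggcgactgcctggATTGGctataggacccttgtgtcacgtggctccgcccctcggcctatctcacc
The CCAAT box was thus common in this list, of which 10 of 28 measured genes were higher, and was found in 41.3% of the 189 higher genes with a window, against 42.6% of the 8182 measured genes with one.

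**Figure D5:**
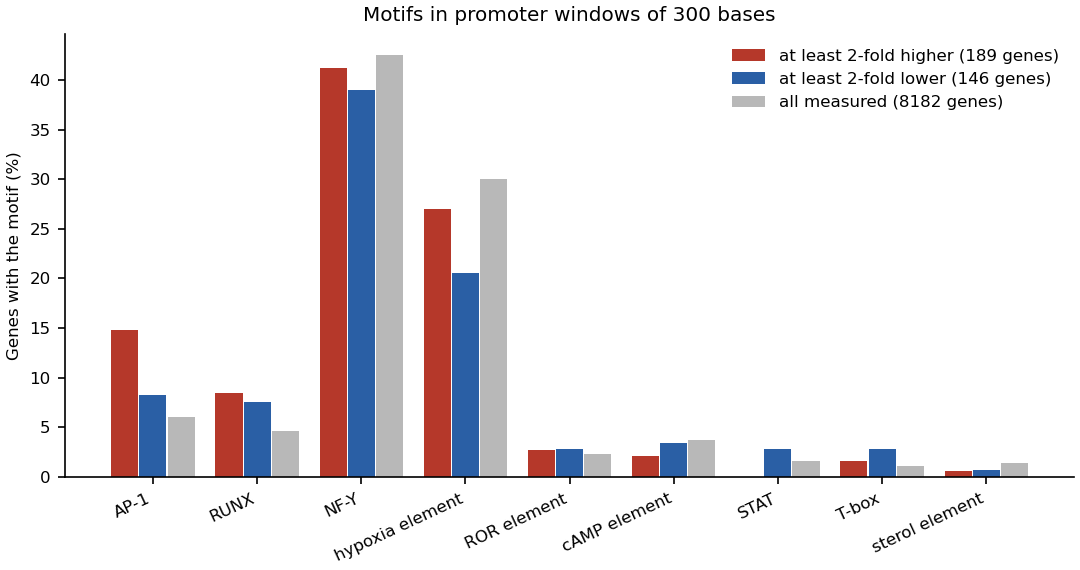
Share of genes (y axis, percent) whose RefSeq promoter window of 300 bases holds each of 9 motifs (x axis), for the higher, the lower and all measured genes. The AP-1 bars stand at 14.8%, 8.22% and 6.04%, while the NF-Y bars of the 3 sets lie between 39.0% and 42.6%; the bars have no error, since genes of a set are not replicates.

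The 12 most abundant genes by mean FPKM divided. B2m (5554 and 4719), H2-D1 (2063 and 1860.4), H2-K1 (1839 and 1729) and H2-Q6 (978 and 1000.5), which serve antigen presentation, the translation factor gene Eef1a1 (1649 and 1398) and Dgat1 (1270 and 1046), an enzyme of triglyceride synthesis, differed by 1.21-fold at most. Il22, Actb, Ramp3, the ferritin light chain gene Ftl1 (1206 and 649), Odc1, the first enzyme of polyamine synthesis (1583 and 964), and the thymosin gene Tmsb4x (1507 and 942) had ratios of at least 1.60 and larger values in CD93-positive ILC3s, of which Il22 alone reached the limit. Cytokine receptor genes of the common gamma chain family had a median of 0.07 over 13 measured genes, of which 1 was lower and 0 higher, with Il2rb at 977 and 643 and Il2rg at 176 and 130. NF-κB genes had 0 of 24 and SOCS and PIM response genes 0 of 15 at least 2-fold apart. The shares over all measured genes were 2.49% higher and 1.94% lower. Genes at high levels were more often higher than lower in CD93-positive ILC3s: of 344 genes with a mean FPKM of at least 100, 5.52% were higher and 2.33% lower, while of 1300 genes with a mean under 2 the shares were 1.77% and 3.08%.

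At the edge of the filter, Tube1 (1.00 and 0.595) was just inside the rule that chose the genes and Tspan32 (1.00 and 0.299, just under 1 before rounding) just outside. Of 7 measured genes with no read in CD93-positive ILC3s, Endou was the one with an FPKM of at least 5, and 0 measured genes had no read in CD93-negative ILC3s.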

How the data were processed

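RNA of CD93-positive and CD93-negative ILC3s was sequenced on a BGISEQ-500 instrument per the series' design text, with 1 library each. FPKM values were computed and deposited by the authors, and the joint table equalled both per-library tables. Per the submitters' processing notes, Bowtie2, featureCounts of Subread, edgeR and DESeq2 were used with the mm10 build; for settings, strand and annotation the sources used here give nothing. From the deposited FPKM the difference log2((FPKM + 1) / (FPKM + 1)) was computed for genes that reached an FPKM of 1 in either library. With 1 library per group there is no test and no p-value. Reads were recovered as FPKM times the GENCODE M21 union exon length over the value of 1 read, within 0.02 reads of a whole number for 98.1% and 98.2% of the values above 0; they summed to 11406363 and 10740639 over 12159 genes whole in both libraries. The recovered reads gave 95% exact (Clopper-Pearson) intervals of ratios, and bounds at 3 reads, which cover counting error only, since reads amplified by PCR with no molecular identifiers do not count independent molecules. Akap12 and Flna had no whole reads and so no interval.

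Gene lists (77, with 1735 genes, of which 1409 were measured) and members were chosen with earlier results of these data known, and a list of exocrine pancreas enzymes was added after the values were seen. Lists are described by counts and medians, without set tests. A list was given a direction where at least 5 members were measured and its median lay at least 0.25 from that of all genes. Named genes were the 30 highest and 30 lowest differences among genes that reached an FPKM of 5, the 12 most abundant, the 10 farthest each way with at least 50 in both, and list members, those 2-fold apart or most abundant first; Hoxa genes, runs of neighbours and list members under 2-fold were also named after their values were seen. Predicted, pseudo-, mitochondrial, receptor segment and histone genes were left out of the ranks. Promoter windows came from RefSeq (GRCm38.p6). Steps were tested on simulated data with Python 3 tools. Alternatives were other pseudocounts, filters, scalings and a 3-fold limit; a minimum of 100 recovered reads, centring by length and level, and alternatives for the AP-1 share were added after the data were seen. A few genes and a sequence are not reported here.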

Additional observations from a re-analysis of the deposited data

How the results depend on the processing

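The counts of genes at least 2-fold higher and lower (252 and 196) were 391 and 392 with a pseudocount of 0.1, 109 and 60 with a pseudocount of 5, and 73 and 37 at a 3-fold limit. They were 210 and 127 with an FPKM of at least 5, 173 and 296 with both FPKM sums made equal, 187 and 263 with the sums taken without Il22, Actb, mitochondrial and ribosomal protein genes, and 225 and 161 with at least 100 recovered reads. The median difference of all genes (0.04) was -0.12 and -0.084 under these 2 scalings to a sum. Of 39 lists with a direction, 21 kept it at the limit of 0.25 under every alternative run on lists. The 39 and the 21 include the exocrine pancreas list, which was added after the values were seen. The other 18 came under 0.25 in at least 1 alternative. With a pseudocount of 5 these were lymphoid progenitor, macrophage, growth factor, chemokine, clock, interferon-stimulated, sterol export, one-carbon, polyamine, heat shock, oxidative stress, cell cycle, matrix, axon guidance and complement genes. The respiratory chain and proteasome lists did so relative to bins of gene length and level, and the endothelial list without the filter on low values. Without the filter on low values, 2 reversed relative to all genes, the endothelial list (-0.11) and the axon guidance list (-0.032). Alternatives on single genes were run for 87 genes, those named by rank and Cd93. Genes named only as list members were not run, so calls among them close to the 2-fold limit were not checked in this way. Of the 75 ranked genes at least 2-fold apart, 69 were so under all 5 alternatives run on genes. The exceptions were Btg2, Dpp4, Pmel, Sntb1, Tbc1d4 and Tbx6. The cause was not tested. No paired analysis was possible because each group has 1 library.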
